A study of Homo sapiens with 4 samples.

Results

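The SOX and KLF transcription factors described here are the 9 genes SOX2, SOX4, SOX9, SOX12, SOX13, KLF4, KLF5, KLF6 and KLF10, taken by symbol from the 60651 gene rows of a stranded count table. The cells were KP4, an established human line of pancreatic ductal adenocarcinoma, and messenger RNA was sequenced after 96 h in 4 groups: E5 cells given FOLFIRINOX, E5 cells given vehicle, control cells given FOLFIRINOX and control cells given vehicle. The drug mixture held 25 nM SN-38 (the active metabolite of irinotecan), 10 µM of an agent that the labels write as 5-F, and 5 µM oxaliplatin, and the vehicle was DMSO. The series title speaks of resistant cells and its design text of cells taken through 5 cycles of drug or DMSO. For both E5 groups 5 cycles are recorded, and for the control groups no number of cycles. What the name E5 stands for, what the E5 and control cells were given in earlier cycles, and whether E5 is 1 clone or a mixed culture are not given in the sources used here.

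Each group was 1 deposited sample with n = 3 numbered libraries. Nothing says that these came from separate cultures, so p-values measure only the spread between these libraries, which may be technical. Gene reads per library ranged between 7359034 and 21775030. All 9 genes passed the filter on low counts and were among 15636 genes tested. Levels are given as CPM (each gene's reads relative to the gene reads of its library, scaled for library composition) when 1 gene is compared between groups, and as the authors' FPKM, which also divides by gene length, when genes are compared with each other.

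SOX proteins bind DNA through an HMG box, which sits in the minor groove and bends the helix, and most of them act together with a partner factor bound next to them. KLF proteins bind GC-rich and CACCC-type sites through a C-terminal array of zinc fingers, and their N-terminal regions recruit either activators or repressors. Among the genes here, SOX2 and KLF4 belong to the reprogramming factors that return somatic cells to pluripotency, SOX9 marks pancreatic progenitors and adult duct cells, and KLF5 and SOX4 are linked in mouse pancreatic cancer cells, where TGF-beta lowers Klf5 and induces Sox4.

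The 250 bases upstream of the RefSeq start (build GRCh38.p14) are shown for SOX2 and SOX4, the SOX genes with the largest drug responses in control cells, and for KLF4 and KLF6, KLF genes that rose with the drug in both lines. Each is printed 5′ to 3′ on the coding strand, and capitals mark CCAAT boxes (CCAAT or ATTGG) and GC boxes (GGGCGG or CCGCCC), searched on both strands.
SOX2, chr3:181711675-181711924, plus strand: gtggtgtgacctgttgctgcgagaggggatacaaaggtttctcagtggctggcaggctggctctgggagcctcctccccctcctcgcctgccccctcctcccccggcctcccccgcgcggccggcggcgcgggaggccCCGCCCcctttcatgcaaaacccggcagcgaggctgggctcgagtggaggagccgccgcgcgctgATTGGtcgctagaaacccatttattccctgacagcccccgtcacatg
SOX4, chr6:21593501-21593750, plus strand: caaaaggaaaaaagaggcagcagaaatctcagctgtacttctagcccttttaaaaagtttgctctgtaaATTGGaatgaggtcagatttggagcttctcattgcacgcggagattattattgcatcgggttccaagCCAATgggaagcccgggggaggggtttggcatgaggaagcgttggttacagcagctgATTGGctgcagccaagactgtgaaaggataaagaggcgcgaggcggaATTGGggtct
KLF4, chr9:107489770-107490019, minus strand: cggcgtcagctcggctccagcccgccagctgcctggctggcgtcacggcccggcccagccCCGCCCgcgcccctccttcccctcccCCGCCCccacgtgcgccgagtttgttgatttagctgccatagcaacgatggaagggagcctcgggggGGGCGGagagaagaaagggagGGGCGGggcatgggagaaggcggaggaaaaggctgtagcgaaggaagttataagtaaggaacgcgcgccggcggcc
KLF6, chr10:3785210-3785459, minus strand: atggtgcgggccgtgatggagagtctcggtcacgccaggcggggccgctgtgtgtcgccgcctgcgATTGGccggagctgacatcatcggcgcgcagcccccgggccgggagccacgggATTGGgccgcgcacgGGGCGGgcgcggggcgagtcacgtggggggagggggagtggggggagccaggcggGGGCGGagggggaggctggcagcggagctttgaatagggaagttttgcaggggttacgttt

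The SOX4 window held 4 CCAAT boxes and no GC box, and the KLF4 window held 4 GC boxes and no CCAAT box. SOX2 had 1 box of each kind, and KLF6 had 2 of each. Among 35116 RefSeq promoter windows of 250 bases, 32.0% held at least 1 CCAAT box and 0.874% held 4 or more, while 42.6% held at least 1 GC box and 7.63% held 4 or more. In these 4 sequences no CCAAT box overlapped a GC box. CACCC boxes (CACCC or GGGTG), the other kind of KLF site, were in none of the 4 printed windows, against 54.7% of all windows. They were found in the windows of SOX12 (2), SOX13 (4) and KLF5 (1 and 2 in its 2 windows). Of all windows, 23.1% held 2 or more CACCC boxes and 2.91% held 4 or more. The SOX core motif (ACAAT or ATTGT) matched 2 times in the first KLF5 window only. At least 1 SOX core was in 24.6% of all windows, and 2 or more were in 6.28%. Each motif was counted on its own, so matches of different motifs may share bases. A match describes the letters only. The KLF4 window lies inside the counted KLF4 gene, which on the minus strand starts further upstream, at 107490482. The KLF6 window overlaps the counted KLF6 gene, which on the minus strand starts at 3785281. Of the 9 genes, 7 had a RefSeq promoter entry, with 8 windows in all because KLF5 had 2, and SOX9 and KLF10 are named only.

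Measured per gene length, SOX2 and SOX4 headed the order of the 9 genes under vehicle, and other genes headed it under the drug. In E5 cells given FOLFIRINOX the FPKM means were 29 for SOX9, 25.3 for SOX4, 19.5 for SOX2, 18.9 for KLF10, 16.8 for KLF6, 10.3 for KLF4, 6.01 for SOX13, 4.02 for SOX12 and 1.24 for KLF5. E5 cells given vehicle had 34.1 for SOX2, 28.6 for SOX4, 21.6 for SOX9, 15.8 for KLF10, 12.7 for KLF6, 6.23 for SOX13, 4.95 for SOX12, 3.79 for KLF4 and 1.60 for KLF5. SOX2 and KLF10 under the drug, and SOX13 and SOX12 under vehicle, were the neighbours whose libraries overlapped in E5 cells.

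Control cells had another order. Under FOLFIRINOX their FPKM means were 40.0 for KLF10, 33.7 for KLF6, 23.1 for SOX4, 19.4 for SOX9, 9.65 for SOX2, 8.13 for KLF4, 7.26 for SOX13, 5.78 for KLF5 and 5.43 for SOX12, and the libraries of the last 4 overlapped from each to the next. Under vehicle they were 60.4 for SOX2, 52.3 for SOX4, 22.6 for KLF10, 21.9 for KLF6, 10.8 for SOX9, 8.71 for SOX13, 7.02 for SOX12, 2.74 for KLF4 and 2.61 for KLF5. There the neighbours KLF10 and KLF6, SOX9 and SOX13, SOX13 and SOX12, and KLF4 and KLF5 overlapped. SOX2 thus stood at place 1 under vehicle in both lines, at place 3 in drugged E5 cells and at place 5 in drugged control cells, and KLF5 was the lowest in 3 of the 4 groups.

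**Figure D1:**
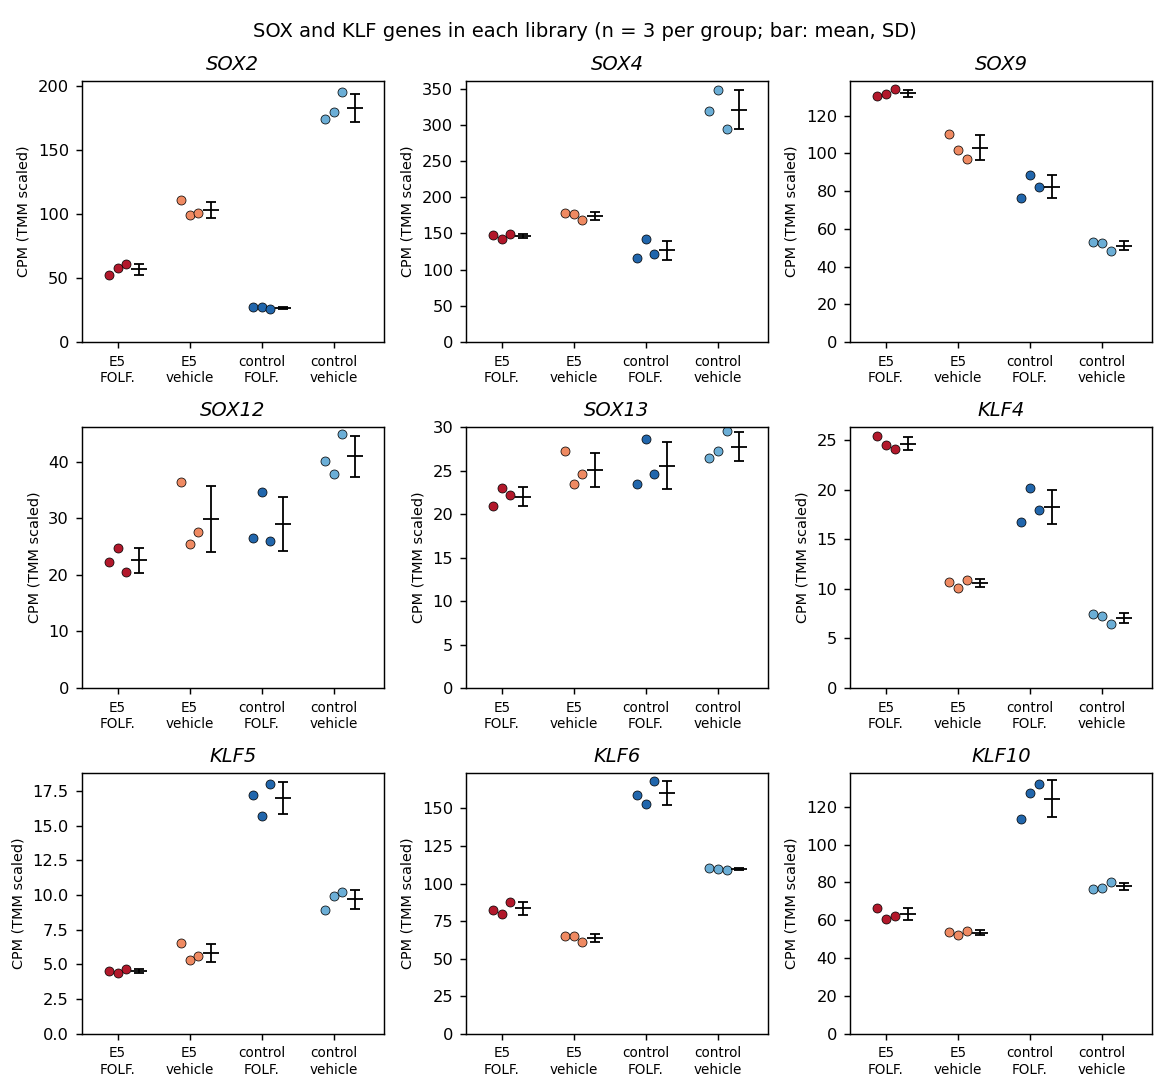
TMM-scaled CPM of the 9 genes in every library, on linear axes that start at 0, with E5 FOLFIRINOX, E5 vehicle, control FOLFIRINOX and control vehicle running left to right; points are libraries, and the marks beside them are group means with SD (n = 3). SOX2 lies between 25.7 and 27.4 CPM in drugged control cells, below every library of the other groups, and KLF5 lies between 15.7 and 18.0 CPM there, above every library of the other groups.

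Under FOLFIRINOX, E5 cells had 4 of the 9 genes higher (SOX9, KLF4, KLF6 and KLF10), 4 lower (SOX2, SOX4, SOX12 and KLF5) and SOX13 short of the test, with a median log2 fold change of -0.18 against 0.00 over all tested genes. Of all tested genes, 52.3% were called, 25.0% as higher and 27.3% as lower. Control cells had 5 higher (SOX9, KLF4, KLF5, KLF6 and KLF10), 3 lower (SOX2, SOX4 and SOX12) and SOX13 again short of the test, with a median of 0.55 against 0.00. There 65.3% of all genes were called, 32.6% as higher and 32.7% as lower. Drugged and vehicle libraries did not overlap for 9 of the 9 genes in E5 cells and 8 of the 9 in control cells, and this held for 59.7% and 67.0% of all tested genes. Adjusted p-values are from edgeR's quasi-likelihood test, adjusted over all tested genes. In bulk RNA, fewer cells of a type and less RNA per cell cannot be told apart.

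The difference of the drug responses, E5 minus control, was called for 5 of the 9 genes, 2 as higher (SOX2 and SOX4) and 3 as lower (SOX9, KLF5 and KLF10), against 13.3% and 12.4% of all tested genes. KLF4, KLF6, SOX12 and SOX13 did not pass this test. The 9 genes were chosen with earlier results of these data known, so their counts beside the shares of all genes are description only. Between lines, E5 cells under FOLFIRINOX had 4 of the 9 higher (SOX2, SOX4, SOX9 and KLF4) and 5 lower than control cells under FOLFIRINOX (26.7% and 27.6% of all genes, 54.3% in either direction), with a median of -0.23 against -0.01. Under vehicle, E5 cells had 2 higher (SOX9 and KLF4) and 6 lower than control cells (22.1% and 22.2% of all genes, 44.3% in either direction), with a median of -0.54 against -0.01. E5 and control libraries did not overlap for 9 of the 9 genes under FOLFIRINOX and 8 of the 9 under vehicle, and for 57.2% and 54.8% of all tested genes. These comparisons share libraries: each group enters 2 of the 4 simple comparisons, and the difference uses all 4 groups.

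SOX2, the SOXB1 factor of pluripotent and neural progenitor cells, is a single-exon gene (ENSG00000181449.4, GRCh38 chromosome 3, 181711925 to 181714436). Its level was 52.5, 57.9 and 61.0 CPM in E5 cells given FOLFIRINOX, 111, 99.3 and 101 CPM in E5 cells given vehicle, 27.4, 27.1 and 25.7 CPM in control cells given FOLFIRINOX and 175, 180 and 196 CPM in control cells given vehicle. No 2 groups overlapped: the drugged groups were the low ones, and the vehicle groups the high ones. Under FOLFIRINOX SOX2 was 1.81-fold lower than under vehicle in E5 cells, a log2 fold change of -0.86 ± 0.073 (SE, adjusted p = 7e-08). In control cells it was 6.88-fold lower, a log2 fold change of -2.78 ± 0.078 (adjusted p = 7.6e-14).

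The SOX2 responses differed by 1.93 ± 0.11 log2 units between the lines (95% interval 1.72 to 2.13, adjusted p = 7.4e-09), and this was the largest of the 9 differences. E5 cells held more SOX2 than control cells under FOLFIRINOX (log2 1.10 ± 0.078, adjusted p = 3.5e-09) and less under vehicle (log2 -0.83 ± 0.071, adjusted p = 4.4e-08), so the order of the lines was opposite under the 2 treatments. SOX2 lies inside SOX2-OT, a long noncoding gene on the same strand. Counting by strand does not separate the reads of their shared span. SOX2-OT summed to 173 counts over the 3 libraries of drugged E5 cells, 73 in vehicle E5 cells, 201 in drugged control cells and 130 in vehicle control cells. Its fitted change under the drug was a rise in both lines (log2 0.77 ± 0.24, adjusted p = 0.012 in E5 cells and 0.67 ± 0.21, adjusted p = 0.0086 in control cells), the opposite sign to SOX2.

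SOX4, a SOXC factor of progenitor cells and of the TGF-beta response in epithelial tumours, also has 1 exon (ENSG00000124766.7, chromosome 6, 21593751 to 21598619). It was measured at 147, 143 and 149 CPM in E5 cells given FOLFIRINOX and 179, 176 and 168 CPM in E5 cells given vehicle. The control libraries had 117, 142 and 122 CPM under FOLFIRINOX and 319, 349 and 295 CPM under vehicle. Vehicle control cells stood apart on the high side, at 295 CPM or more in every library, while the other 3 groups lay close together without overlapping.

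The fall of SOX4 under FOLFIRINOX was 1.19-fold in E5 cells (log2 -0.25 ± 0.075, adjusted p = 0.0096) and 2.52-fold in control cells (log2 -1.33 ± 0.076, adjusted p = 2e-10). The responses differed by 1.08 ± 0.11 log2 units (95% interval 0.87 to 1.29, adjusted p = 2.5e-06). The E5 call was lost when libraries were scaled by total counts alone (log2 -0.18, adjusted p = 0.057) and on the authors' FPKM. Under FOLFIRINOX the fitted log2 fold change of SOX4 in E5 over control cells was 0.20 ± 0.075 (adjusted p = 0.032), and that call was lost in 8 of 20 settings, among them total-count scaling (0.12, adjusted p = 0.2), the fit of the 2 groups alone (0.20, adjusted p = 0.054) and both FPKM scales. It was also lost without replicate 1 (0.16) or 3 (0.18) of drugged control cells or replicate 1 (0.20) or 3 (0.21) of drugged E5 cells. Under vehicle, E5 cells had 1.84-fold less SOX4 than control cells (log2 -0.88 ± 0.075, adjusted p = 3.9e-08).

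SOX12, the SOXC relative of SOX4, moved less than SOX4 in control cells (ENSG00000177732.9, chromosome 20, 325552 to 330224, 1 exon). The libraries held 22.3, 24.8 and 20.5 CPM in E5 cells given FOLFIRINOX, 36.4, 25.4 and 27.6 CPM in E5 cells given vehicle, 26.5, 34.6 and 26.0 CPM in control cells given FOLFIRINOX and 40.0, 37.8 and 44.9 CPM in control cells given vehicle. Drugged and vehicle libraries did not overlap in either line, but replicate 1 of vehicle E5 cells and replicate 2 of drugged control cells stood high in their groups. The log2 fold change under the drug was -0.38 ± 0.13 in E5 cells (adjusted p = 0.026) and -0.48 ± 0.13 in control cells (adjusted p = 0.0033), and the difference of 0.10 ± 0.19 did not pass (95% interval -0.26 to 0.46, adjusted p = 0.73). E5 cells were lower than control cells under FOLFIRINOX (-0.38 ± 0.13, adjusted p = 0.021) and under vehicle (-0.48 ± 0.13, adjusted p = 0.006).

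Of these 4 SOX12 calls, 3 were lost without single libraries. All but the line call under vehicle were lost on both scales of the authors' FPKM. Total-count scaling ended the E5 drug call too (log2 -0.31, adjusted p = 0.07). The E5 drug call was lost without replicate 1 (-0.37) or 3 (-0.31) of drugged E5 cells or replicate 1 of vehicle E5 cells (-0.23). The line call under vehicle was lost without replicate 2 of vehicle E5 cells (-0.37), and that under FOLFIRINOX without replicate 2 of drugged control cells (-0.21) or replicate 1 (-0.37) or 3 (-0.30) of drugged E5 cells. The gene overlaps NRSN2-AS1, which runs on the opposite strand and summed to 119, 168, 212 and 254 counts in the same order of groups. NRSN2-AS1 fell under the drug in E5 cells (log2 -0.98 ± 0.17, adjusted p = 0.00011) but was not called in control cells (-0.21 ± 0.14, adjusted p = 0.2). It was lower in E5 than in control cells under FOLFIRINOX (-0.91 ± 0.16, adjusted p = 0.00013), was not called under vehicle (-0.15 ± 0.15), and had a difference of -0.76 ± 0.22 (adjusted p = 0.017).

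SOX9, the SOXE factor of pancreatic progenitors and ducts, went the other way from SOX2 and SOX4 (ENSG00000125398.8, chromosome 17, 72121020 to 72126416, 3 exons). E5 cells given FOLFIRINOX had 130, 131 and 134 CPM and E5 cells given vehicle had 110, 102 and 97.1 CPM. Control cells given FOLFIRINOX had 76.3, 88.5 and 82.0 CPM and control cells given vehicle had 52.9, 52.3 and 48.4 CPM. The 4 groups did not overlap and stood in this order, so both E5 groups were above both control groups, and each drugged group was above its vehicle group.

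With the drug SOX9 rose 1.28-fold in E5 cells (log2 0.36 ± 0.069, adjusted p = 0.00033) and 1.61-fold in control cells (log2 0.69 ± 0.071, adjusted p = 2.5e-07). E5 cells had 1.60-fold more SOX9 than control cells under FOLFIRINOX (log2 0.68 ± 0.069, adjusted p = 3.3e-07) and 2.01-fold more under vehicle (log2 1.01 ± 0.072, adjusted p = 3.5e-09). The difference of the responses was -0.33 ± 0.099 log2 units (adjusted p = 0.021). It lost its call without a filter on low counts (-0.29, adjusted p = 0.12), and without replicate 2 of drugged control cells (-0.27), replicate 3 of vehicle control cells (-0.29) or replicate 1 of vehicle E5 cells (-0.28). SOX9-AS1, antisense to the gene, summed to 49, 38, 58 and 44 counts in drugged E5, vehicle E5, drugged control and vehicle control cells and was not called in any comparison.

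SOX13, a SOXD factor that lacks an activation domain of its own, spans 14 exons (ENSG00000143842.15, chromosome 1, 204073115 to 204127743) and had the smallest fitted drug response of the 9 in either line. Its libraries ranged from 20.9 to 23.0 CPM in E5 cells given FOLFIRINOX, 23.5 to 27.3 CPM in E5 cells given vehicle, 23.5 to 28.6 CPM in control cells given FOLFIRINOX and 26.5 to 29.6 CPM in control cells given vehicle. Drugged and vehicle control libraries overlapped, and so did vehicle E5 and vehicle control libraries. The fitted drug change was -0.18 ± 0.092 in E5 cells (95% interval -0.36 to 0.00, adjusted p = 0.11) and -0.11 ± 0.089 in control cells (95% interval -0.28 to 0.07, adjusted p = 0.30). Its only call was a lower level in E5 than in control cells under FOLFIRINOX (-0.23 ± 0.090, adjusted p = 0.037), lost in 11 of 20 alternative settings, among them leaving out replicate 2 of drugged control cells (-0.12), replicate 1 (-0.19) or 3 (-0.22) of drugged E5 cells or replicate 3 of vehicle E5 cells (-0.23).

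**Figure D2:**
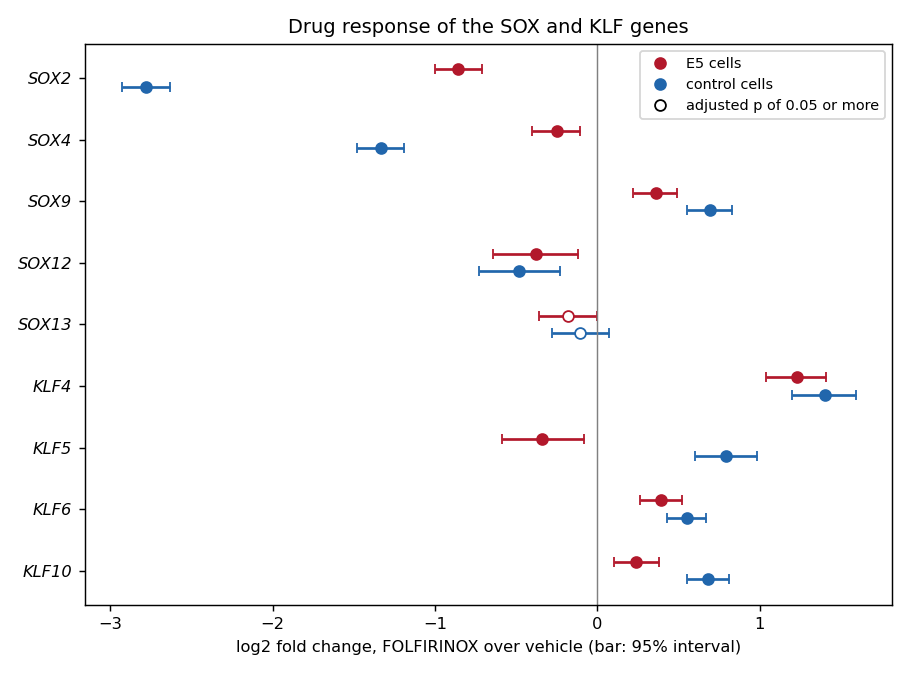
Log2 fold change under FOLFIRINOX over vehicle for each gene in E5 and in control cells, with approximate 95% intervals. Open symbols are adjusted p of 0.05 or more. SOX2 fell by 0.86 in E5 and by 2.78 in control cells, SOX4 by 0.25 and 1.33 in that order, and the KLF4 values of 1.23 in E5 and 1.40 in control cells have overlapping intervals.

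KLF4, a reprogramming factor that in epithelia is tied to differentiation and to growth arrest, had the largest rise of the 9 under the drug in both lines (ENSG00000136826.15, chromosome 9, 107484852 to 107490482, minus strand, 5 exons). It had 25.4, 24.5 and 24.1 CPM in E5 cells given FOLFIRINOX and 10.7, 10.1 and 10.9 CPM in E5 cells given vehicle. In control cells the values were 16.7, 20.2 and 18.0 CPM under FOLFIRINOX and 7.45, 7.26 and 6.47 CPM under vehicle. No 2 groups overlapped, and every drugged library, of either line, was above every vehicle library.

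The rise of KLF4 was 2.34-fold in E5 cells (log2 1.23 ± 0.094, adjusted p = 2.3e-08) and 2.63-fold in control cells (log2 1.40 ± 0.099, adjusted p = 2.8e-09). The difference of the responses did not pass (-0.17 ± 0.14, 95% interval -0.44 to 0.10, adjusted p = 0.40). E5 cells had 1.34-fold more KLF4 than control cells under FOLFIRINOX (log2 0.42 ± 0.085, adjusted p = 0.00051) and 1.5-fold more under vehicle (log2 0.59 ± 0.11, adjusted p = 3e-04). In the KLF4 promoter printed above, 2 of the GC boxes read CCGCCC and 2 read GGGCGG.

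KLF5, which promotes growth and epithelial identity in gut and pancreatic cancer cells, was the least abundant of the 9 in E5 cells and the one with opposite calls in the 2 lines (ENSG00000102554.14, chromosome 13, 73054976 to 73077541, 4 exons). Its level was 4.50, 4.42 and 4.70 CPM in E5 cells given FOLFIRINOX and 6.56, 5.34 and 5.62 CPM in E5 cells given vehicle, which rested on 49 to 87 reads per library. Control cells had 17.2, 15.7 and 18.0 CPM under FOLFIRINOX and 8.90, 9.93 and 10.2 CPM under vehicle. The 4 groups did not overlap, with drugged control cells highest and drugged E5 cells lowest.

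In E5 cells the fitted log2 fold change of KLF5 under FOLFIRINOX was -0.34 ± 0.13 (adjusted p = 0.04), and this call was lost in 12 of 20 settings, with values between -0.41 and -0.20. With all libraries kept, the call was lost with DESeq2 (-0.33, adjusted p = 0.12) and with total-count scaling (-0.27, adjusted p = 0.11). It was also lost without a filter on low counts, in the fit of the 2 groups alone and on both FPKM scales. Leaving out replicate 1 (-0.33), 2 (-0.32) or 3 (-0.35) of drugged E5 cells ended it too. So did leaving out replicate 1 (-0.27) or 3 (-0.35) of vehicle E5 cells, or replicate 1 of drugged control cells (-0.33), a group outside this comparison. In control cells the drug raised KLF5 1.73-fold (log2 0.79 ± 0.098, adjusted p = 2.1e-06). The difference of the responses was -1.13 ± 0.16 log2 units (95% interval -1.45 to -0.81, adjusted p = 0.00011) and was called in all 19 alternatives, with values between -1.44 and -0.74. Between lines, KLF5 was 3.73-fold lower in E5 than in control cells under FOLFIRINOX (log2 -1.90 ± 0.11, adjusted p = 2e-10) and 1.71-fold lower under vehicle (log2 -0.77 ± 0.12, adjusted p = 4.3e-05).

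KLF6, a factor induced in injured epithelium and described as a growth suppressor, was lower in E5 than in control cells under either treatment (ENSG00000067082.15, chromosome 10, 3775996 to 3785281, minus strand, 4 exons). The libraries had 82.2, 80.1 and 88.1 CPM in E5 cells given FOLFIRINOX, 65.4, 64.9 and 60.9 CPM in E5 cells given vehicle, 159, 153 and 169 CPM in control cells given FOLFIRINOX and 110, 110 and 109 CPM in control cells given vehicle. Both control groups were above both E5 groups without overlap. The drug raised it 1.31-fold in E5 cells (log2 0.39 ± 0.064, adjusted p = 7.7e-05) and 1.46-fold in control cells (log2 0.55 ± 0.061, adjusted p = 6.6e-07), and the difference did not pass (-0.16 ± 0.088, 95% interval -0.33 to 0.02, adjusted p = 0.21). E5 cells were lower than control cells by 1.92-fold under FOLFIRINOX (log2 -0.94 ± 0.062, adjusted p = 1.2e-09) and by 1.72-fold under vehicle (log2 -0.78 ± 0.064, adjusted p = 2.2e-08).

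KLF10, a TGF-beta-inducible early gene that restrains growth (ENSG00000155090.15, chromosome 8, 102648784 to 102655725, minus strand, 4 exons), had a pattern near that of KLF6. It stood at 66.6, 60.4 and 62.3 CPM in E5 cells given FOLFIRINOX and 53.7, 52.2 and 54.5 CPM in E5 cells given vehicle. Control cells had 113, 127 and 132 CPM under FOLFIRINOX and 76.6, 77.0 and 80.1 CPM under vehicle. Again every control library was above every E5 library, and each drugged group above its vehicle group. The rise under FOLFIRINOX was 1.18-fold in E5 cells (log2 0.24 ± 0.070, adjusted p = 0.0082) and 1.60-fold in control cells (log2 0.68 ± 0.067, adjusted p = 1.5e-07). Unlike for KLF6, the difference of these responses passed (-0.44 ± 0.097, 95% interval -0.63 to -0.25, adjusted p = 0.0036). E5 cells were lower than control cells by 1.97-fold under FOLFIRINOX (log2 -0.98 ± 0.067, adjusted p = 2.3e-09) and by 1.46-fold under vehicle (log2 -0.54 ± 0.070, adjusted p = 6.1e-06).

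**Figure D3:**
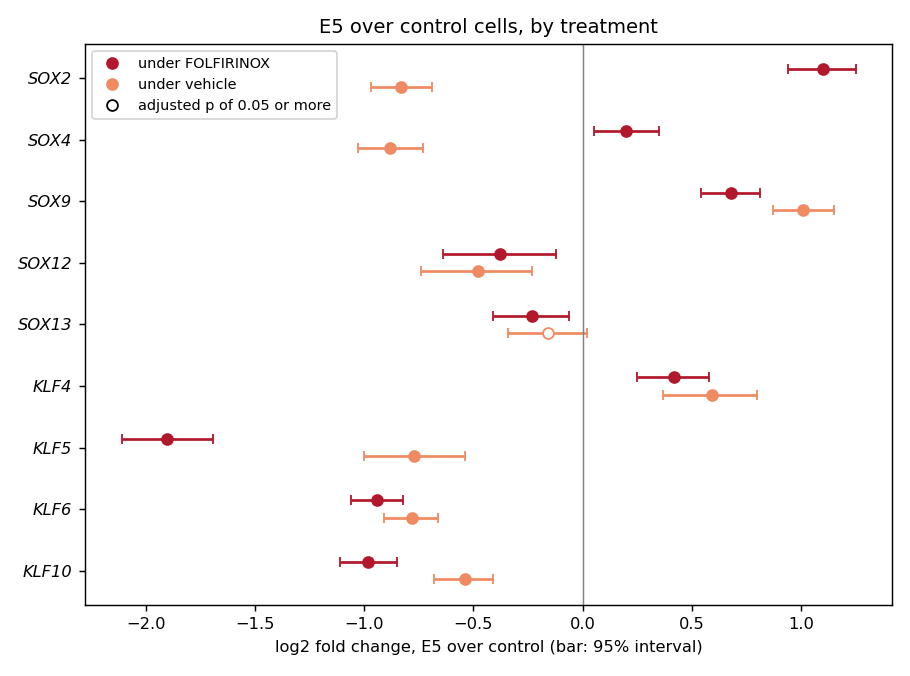
Log2 fold change of E5 over control cells for each gene under FOLFIRINOX and under vehicle, with 95% intervals; open symbols are adjusted p of 0.05 or more. SOX2 lies at 1.10 under FOLFIRINOX and -0.83 under vehicle, and KLF5, KLF6 and KLF10 lie below 0 under both treatments.

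Across the 12 libraries, log2 CPM of KLF6 and KLF10 had a Pearson r of 0.97, KLF5 had 0.91 with KLF10 and 0.89 with KLF6, SOX2 and SOX4 had 0.90, and SOX12 and SOX13 had 0.93. KLF4 ran with SOX9 (0.79) and against SOX4 (-0.84) and SOX2 (-0.82). These values describe 12 libraries that fall into 4 groups, and they are given with no test. The protein-coding genes most like each of the 9 by the same measure were ZMYND8 (0.992) and PADI2 (0.991) for SOX2, TCF7L2 (0.979) and NF2 (0.974) for SOX4, TRIML2 (0.989) and CHST11 (0.989) for SOX9, MAPK8IP1 (0.97) and SORBS3 (0.965) for SOX12, and CHAF1A (0.947) and THOP1 (0.946) for SOX13. For the KLF genes they were H2AC6 (0.986) and EEF1AKMT3 (0.984) for KLF4, SGK1 (0.993) and SLC7A6OS (0.976) for KLF5, SMNDC1 (0.995) and MRPL45 (0.991) for KLF6, and EZR (0.99) and ZNF778 (0.989) for KLF10.

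Of 14 other KLF genes, 10 were tested, and under FOLFIRINOX 7 rose and 2 fell in control cells, while 4 rose and none fell in E5 cells (6 did not pass). Over all tested genes 25.0% rose and 27.3% fell in E5 cells, and 32.6% rose and 32.7% fell in control cells. The median log2 fold changes of the 10 were 0.53 in E5 and 0.49 in control cells, against 0.00 over all genes. The E5 median fell between KLF15 (0.50 ± 0.81) and KLF14 (0.56 ± 0.39). Neither was called there, and they reached no more than 0.285 and 0.93 CPM in these E5 libraries. Of the 7 that rose in control cells, KLF2, KLF14 and KLF15 were low, with drugged means of 3.59, 0.833 and 0.801 CPM. KLF11, a second TGF-beta-inducible early gene, had 16.2 ± 0.697 CPM in drugged and 8.87 ± 1.26 CPM in vehicle E5 cells, and 21.6 ± 0.441 CPM in drugged and 10.7 ± 0.542 CPM in vehicle control cells (SD, n = 3 each). It rose by 0.90 ± 0.10 and 1.01 ± 0.095 log2 units in E5 and control cells (adjusted p = 2.1e-06 and 8.2e-08). KLF7 rose by 0.60 and 0.53 and KLF13 by 0.68 and 0.46 in the same order, and KLF9 fell in control cells (log2 -0.64 ± 0.14, adjusted p = 0.00071). Between lines, 3 of the 10 were higher and 4 lower in E5 cells under FOLFIRINOX and 1 higher and 3 lower under vehicle. There 54.3% and 44.3% of all tested genes were called. KLF3, a CtBP-bound repressor, was lower in E5 cells under FOLFIRINOX (log2 -0.41) and under vehicle (-0.40). Of the 10, KLF14 alone passed the difference test, as lower in E5 cells, at no more than 1.03 CPM in any library. Over all tested genes 25.7% passed that test.

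SP factors carry the same kind of zinc fingers and bind GC boxes. Of 6 tested, 3 fell, none rose and 3 (SP3, SP6 and SP8) did not pass in each line, against 52.3% of all genes called in E5 and 65.3% in control cells. SP1 had 122 ± 7.01 CPM in drugged and 169 ± 5.49 CPM in vehicle E5 cells, and 89.9 ± 1.83 CPM in drugged and 164 ± 11.9 CPM in vehicle control cells. It fell by 0.47 on the log2 scale in E5 cells (adjusted p = 1.7e-05) and by 0.87 in control cells (adjusted p = 7.6e-09), and the responses differed by 0.40 ± 0.094 (adjusted p = 0.0053). SP2 and SP4 were the other SP genes lowered in both lines. Of these 6, the E5 level under FOLFIRINOX exceeded the control level for 3 and fell short of it for 1, and under vehicle 1 was higher and 3 lower, with SP6 lower under both (log2 -1.47 and -1.54). Between lines 54.3% of all tested genes were called under FOLFIRINOX and 44.3% under vehicle. Of 14 other SOX genes, 4 were tested (SOX7, SOX18, SOX21 and SOX30), and none reached 5 CPM in any library. Under the drug SOX30 rose and SOX18 fell in E5 cells, SOX30 and SOX7 rose and SOX21 fell in control cells, and none of the 4 passed the difference test. In E5 cells SOX7 and SOX30 were lower than in control cells under FOLFIRINOX, and SOX18 was higher and SOX21 lower under vehicle.

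**Figure D4:**
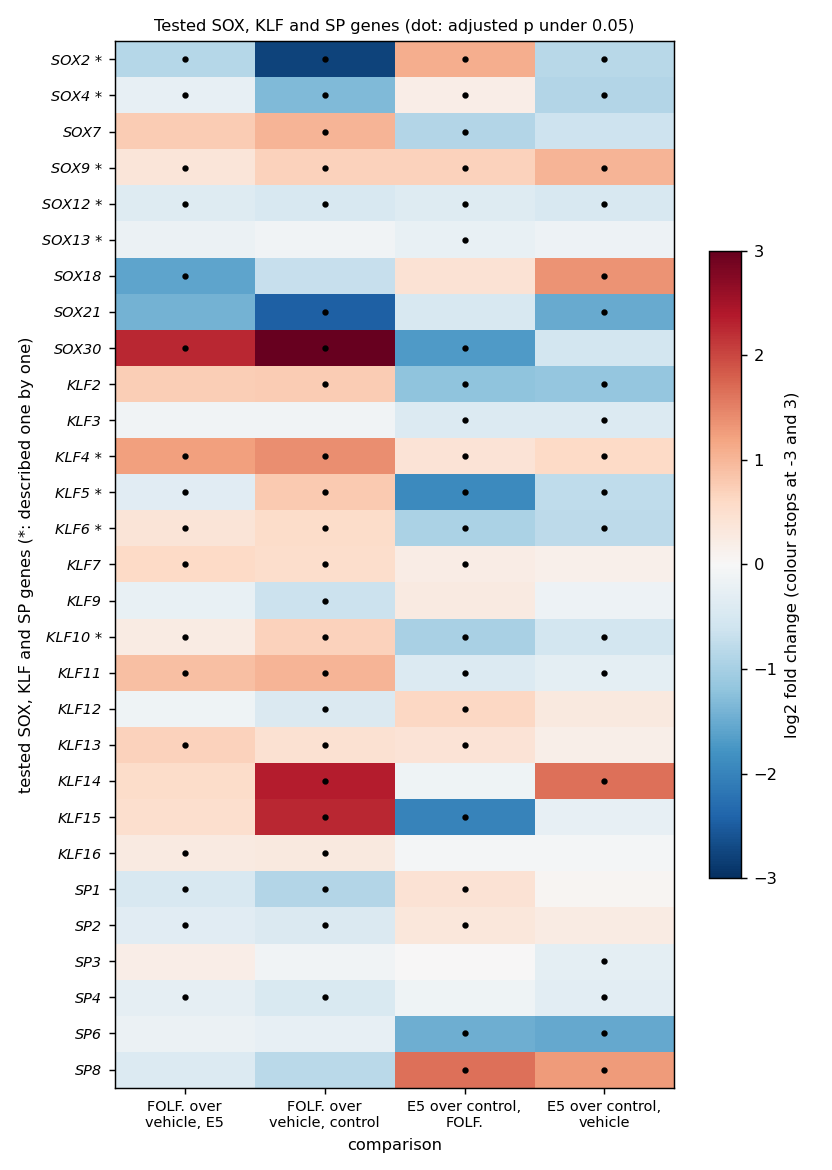
Log2 fold changes as colours (red higher, blue lower, scale stopped at -3 and 3) for all 29 tested SOX, KLF and SP genes in rows; the columns are FOLFIRINOX over vehicle in E5 cells and in control cells, then E5 over control cells under FOLFIRINOX and under vehicle. A dot marks an adjusted p under 0.05 and an asterisk the 9 genes described one by one. SP1 falls with the drug in both lines, and KLF11 rises in both, by 0.90 in E5 and 1.01 in control cells.

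Among 12 genes for cofactors and turnover of SOX and KLF proteins, 2 rose and 5 fell in E5 cells and 1 rose and 7 fell in control cells under FOLFIRINOX, with median log2 fold changes of -0.13 and -0.36. The shares of the 12 called are near those of all tested genes, 52.3% in E5 and 65.3% in control cells. WWP2, a ubiquitin ligase known to act on SOX2, fell to 21.4 ± 2.31 CPM in drugged against 35.8 ± 1.63 CPM in vehicle E5 cells (log2 -0.73) and to 20.6 ± 2.81 CPM in drugged against 43.9 ± 1.36 CPM in vehicle control cells (log2 -1.10). WWP1, a ligase known to act on KLF5, fell in control cells (log2 -0.44), and its responses differed between the lines by 0.55 ± 0.12 (adjusted p = 0.004). CTBP2, a corepressor, rose in E5 cells (0.34) and was lower in E5 than in control cells under vehicle (-0.63). Between lines, 2 of the 12 were higher and 3 lower in E5 cells under FOLFIRINOX, and 1 higher and 5 lower under vehicle. There 54.3% and 44.3% of all tested genes were called. The difference was called as higher for 4 of the 12 (WWP1, CTBP2, HDAC2 and CTBP1) and as lower for none, against 13.3% and 12.4% of all tested genes. Its median was 0.16 against 0.01 over all genes.

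Of 12 reprogramming and stem cell partners, 7 were tested. Under the drug 4 rose and 3 fell in E5 cells, and 3 rose and 3 fell in control cells. The shares of all tested genes called were 52.3% in E5 and 65.3% in control cells. MYC rose to 186 ± 2.19 CPM in drugged against 117 ± 10.8 CPM in vehicle E5 cells (log2 0.68) and to 242 ± 14.9 CPM in drugged against 117 ± 6.4 CPM in vehicle control cells (log2 1.05), with a difference of -0.37 ± 0.099 (adjusted p = 0.012). The pluripotency genes POU5F1 and NANOG, partners of SOX2 in embryonic stem cells, had 7 and 1 reads in all 12 libraries together. Between lines, 1 of the 7 was higher and 6 lower in E5 cells under FOLFIRINOX, and 1 higher and 5 lower under vehicle. There 54.3% and 44.3% of all tested genes were called, 27.6% and 22.2% as lower. ALDH1A1 had 1.44 ± 0.159 CPM in E5 and 40.5 ± 2.96 CPM in control cells under FOLFIRINOX, and 3.59 ± 0.354 CPM in E5 and 62.2 ± 1.16 CPM in control cells under vehicle. CD44, by contrast, was higher in E5 cells under FOLFIRINOX (log2 1.02) and under vehicle (0.52). One of the 7 had a higher and 2 a lower drug response in E5 cells, against 13.3% and 12.4% of all tested genes.

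Duct genes were examined beside SOX9. Of 16, 12 were tested, and 5 were higher and 2 lower in E5 than in control cells under FOLFIRINOX and 6 higher and 2 lower under vehicle, where 54.3% and 44.3% of all genes were called. SPP1, a duct gene known as a SOX9 target in other tissues, had 43.7 ± 1.93 CPM in E5 and 7.95 ± 1.02 CPM in control cells under FOLFIRINOX (log2 2.43), and 67.3 ± 7.53 CPM in E5 and 10.0 ± 0.754 CPM in control cells under vehicle (log2 2.77). GATA6 was higher in E5 cells by 1.59 under FOLFIRINOX and 2.03 under vehicle on the log2 scale, KRT7 by 1.76 and 2.53, and MUC1 by 1.18 and 1.36. CA2 was lower in E5 cells under both (-0.60 and -0.99), EPCAM under FOLFIRINOX, and FOXA2 under vehicle (-0.38). In response to the drug, 5 of the 12 rose and 3 fell in E5 cells, and 4 rose and 3 fell in control cells. The shares of all tested genes called were 52.3% in E5 and 65.3% in control cells. GATA6 rose in both lines as SOX9 did (0.75 in E5 and 1.20 in control cells), while SPP1 fell in both (-0.63 in E5 and -0.29 in control cells). The response in E5 cells was called as higher for FOXA2 and ONECUT1 and as lower for HES1 and GATA6. Over all tested genes 13.3% were called as higher and 12.4% as lower. Of 9 cartilage genes that SOX9 activates in chondrocytes, 2 were tested. Neither passed the test for the drug in either line, and COMP, at no more than 1 CPM, was lower in E5 than in control cells under both treatments.

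TGF-beta signalling and EMT factors around SOX4, KLF5 and KLF10 were represented by 20 tested genes of 23. Under FOLFIRINOX 6 rose and 7 fell in E5 cells, and 5 rose and 9 fell in control cells, where 52.3% and 65.3% of all genes were called. SMAD6, an inhibitor of BMP signalling, fell by 0.76 on the log2 scale in E5 cells and by 1.63 in control cells. BCL2L11, a pro-apoptotic gene of the BCL2 family, fell in control cells to 21.1 ± 0.194 CPM under the drug against 45.2 ± 3.12 CPM under vehicle (log2 -1.10 ± 0.078), and its responses differed between lines by 0.83 ± 0.11 (adjusted p = 3.7e-05). CCN2 fell in E5 cells (-0.77), with a difference of -1.30 ± 0.11 (adjusted p = 8e-07), and PMEPA1 had a difference of 1.04 ± 0.10. In all, 5 of the 20 had a higher and 3 a lower response in E5 cells, against 13.3% and 12.4% of all tested genes. Between lines, 8 were higher and 4 lower in E5 cells under FOLFIRINOX and 10 higher and 5 lower under vehicle, where 54.3% and 44.3% of all genes were called. SMAD3 was higher in E5 cells by 1.09 and 1 and SMAD7 by 1.14 and 1.48. TGFBR1, the type I receptor, had 11 reads in all 12 libraries, and SMAD4 stayed at or below 1.33 CPM in every library.

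The 3 genes listed as SOX4 targets were TEAD2, TUBB3 and EZH2. TEAD2 had 24.8 ± 1.13 CPM in drugged and 36.1 ± 6.57 CPM in vehicle E5 cells, and 16.9 ± 1.70 CPM in drugged and 35.1 ± 2.67 CPM in vehicle control cells. TEAD2 and TUBB3 fell with SOX4 in both lines (log2 -0.52 and -0.76 in E5 cells, -1.04 and -1.41 in control cells), and their responses differed in the same direction as that of SOX4 (0.52 ± 0.16, adjusted p = 0.021, and 0.66 ± 0.21, adjusted p = 0.028). EZH2 rose in control cells (0.25), and its responses differed in the opposite direction (-0.26 ± 0.08, adjusted p = 0.026). Between lines, TEAD2 was higher (0.53) and EZH2 lower (-0.43) in E5 cells under FOLFIRINOX, and TUBB3 (-0.38) and EZH2 (-0.17) were lower under vehicle. Of 13 KLF4 and KLF5 targets, 7 were tested, and under the drug 3 rose and 3 fell in E5 cells, and 4 rose and 1 fell in control cells. The shares of all tested genes called were 52.3% in E5 and 65.3% in control cells. CDKN1A, a cell cycle inhibitor known as a KLF4 target, rose in control cells (log2 0.69) but was not called in E5 cells (0.15, adjusted p = 0.17). The CDKN1A responses differed by -0.54 ± 0.13. Under FOLFIRINOX CDKN1A was lower in E5 than in control cells (-0.29), whereas KLF4 was higher (0.42). Under vehicle both were higher in E5 cells (0.24 for CDKN1A and 0.59 for KLF4). CCND1 rose in E5 cells (0.52), and BIRC5 was lower in E5 than in control cells under FOLFIRINOX (-0.50). Between lines, 3 of the 7 were higher and 3 lower in E5 cells under FOLFIRINOX, and 3 higher and none lower under vehicle. The difference was called as higher for 1 and lower for 3. In the same order of comparisons, 54.3%, 44.3% and 25.7% of all tested genes were called.

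Marker genes were read beside these results. The 7 ductal and epithelial markers summed to 771 to 875 CPM in drugged E5, 745 to 831 in vehicle E5, 417 to 460 in drugged control and 196 to 231 CPM in vehicle control cells. Almost all of this came from KRT8 and KRT18, while EPCAM never passed 1.49 CPM in any library. Single markers did not all follow the sum. Under FOLFIRINOX 2 of the 7 rose and 4 fell in E5 cells (KRT8, KRT19, CDH1 and MUC1). In control cells 4 rose and 2 fell (KRT19 and CDH1). Of all tested genes, 52.3% and 65.3% were called there. Mesenchymal markers summed to 2130 to 2230, 2930 to 3090, 2210 to 2350 and 2580 to 2810 CPM in the same order of groups, mostly from VIM. Of these 5 markers, 3 were higher and 2 (CDH2 and ZEB1) lower in E5 than in control cells under vehicle, where 44.3% of all genes were called. Of 6 pluripotent markers none was tested and their sum never passed 0.334 CPM. Neural markers summed to 127 to 138, 216 to 240, 79.3 to 88.7 and 299 to 344 CPM, nearly all from MAP2, with GFAP and NEUROD1 at or near 0. Through MAP2 the sum followed the order of SOX2. PAX6 did not, with means of 1.6, 1.79, 2.07 and 2.34 CPM in the same order of groups, and the drug change of PAX6 was not called in either line. Leukocyte markers summed to 0.517 to 0.966, 0.402 to 0.754, 10.4 to 14.8 and 49.1 to 55.2 CPM, of which PTPRC alone exceeded 1 CPM, with CD3E at 0 in all libraries. Endothelial markers summed to at most 7.15 CPM and fibroblast markers to at most 17.1 CPM, both highest in vehicle E5 cells. The part of the keratin, MAP2 and PTPRC levels in the results for the SOX and KLF genes was not tested.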

How the data were processed

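RNA from KP4 cells was sequenced in 4 groups of 3 libraries. Per the submitters' processing notes, Trimmomatic, STAR 2.5.1b and build GRCh38 were used. The deposited counts are unscaled stranded reads per gene. The authors' FPKM values divide by gene length and depth. The authors' rlog values are regularised log2 counts. The programs behind FPKM and rlog are not given in the sources used here. Reads outside genes (unmapped 1.47 to 1.7%, multimapping 10.79 to 12.84%, no feature 6.63 to 8.52%, ambiguous 2.86 to 3.2%) were left out of library sizes.

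Counts were fitted in R 4.3.3 with edgeR 4.0.16: TMM scaling, filterByExpr with a minimum count of 10, 1 model over the 4 groups, quasi-likelihood F tests and Benjamini-Hochberg adjustment over 15636 genes at 0.05. The biological coefficient of variation was 7.37%. CPM values used TMM-scaled library sizes. The SE of a fold change was its absolute log2 value divided by the square root of the F statistic. Intervals of fold changes are 95% and take 1.96 of these standard errors. They are approximate and somewhat narrow, because 1.96 is the value of a normal distribution. DESeq2 1.42.0, limma 3.58.1 on log2(FPKM + 1), log2(FPKM + 0.1) and rlog values, total-count scaling, no filter, 2-group fits, a replicate block and leaving out each library were alternatives.

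The 9 genes and all lists were chosen with earlier results of these data known. From each other list, up to 4 genes per comparison could be named, those with the largest change among genes that passed and reached 5 CPM in any library, and text uses a selection of these. SOX7, SOX18, SOX21, SOX30, KLF2, KLF14, KLF15, SP3, SP8, POU5F1, NANOG, ONECUT1, COMP, TGFBR1, SMAD4, EPCAM, KRT19, CDH1, CA2 and FOXA2 (between lines), CDKN1A (drug in E5 cells), PAX6, GFAP, NEUROD1 and CD3E were named after their values were seen. Likeness was the Pearson correlation of log2 CPM with a prior count of 2. Promoter windows came from RefSeq, and exon numbers from the longest GENCODE transcript. Depth of 7359034 to 21775030 gene reads bounds the precision of low genes.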

Additional observations from a re-analysis of the deposited data

Results flagged for a closer look

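The drug response of 5 of the 9 genes differed between E5 and control cells by the test of the difference itself (edgeR's quasi-likelihood test, log2 units, E5 minus control), against 25.7% of all tested genes. Because the 9 were chosen with earlier results of these data known, the 2 shares are given as description only. The difference was 1.93 for SOX2 and 1.08 for SOX4, whose fall under FOLFIRINOX was smaller in E5 cells. It was -1.13 for KLF5, -0.44 for KLF10 and -0.33 for SOX9, a call lost in 4 of 19 settings. KLF10 and SOX9 rose less in E5 cells than in control cells. KLF5 was lower under the drug in E5 cells (log2 -0.34, a call lost in 12 of 20 settings) and higher in control cells (0.79).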

How the results depend on the processing

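Each value of the 9 genes in the 5 comparisons was refitted under 19 or 20 alternatives, 891 values in all: 834 kept direction and side of the threshold, 52 lost a call and 5 changed sign without being called. The sign changes were for SOX13 in drugged control cells with total counts only (0.03), for the SOX13 difference without replicate 2 of drugged control cells (0.03) and on log2(FPKM + 1) (0.18) and log2(FPKM + 0.1) (0.20), and for the SOX12 difference without replicate 2 of vehicle E5 cells (-0.01). Of the 9 genes, 4 were lower in drugged E5 cells, against 1 with total counts only and 1 on each FPKM scale, and 2 to 4 when a library was left out. Of the 5 lower in E5 than in control cells under FOLFIRINOX, 3 were called on each FPKM scale, and 3 to 5 when a library was left out.

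Over all genes, counts on log2(FPKM + 1) and log2(FPKM + 0.1) were 2949 and 2943 lower in drugged control cells (5109 in edgeR), 2837 and 2775 lower in drugged E5 cells (4265), 2638 and 2605 higher in E5 cells under FOLFIRINOX (4170) and 814 and 751 with a higher response in E5 cells (2080). The cause was not tested. With total-count scaling 60.9% of the calls in drugged control cells were higher (49.9% with TMM), and 39.5% of the called differences of response (51.8% with TMM). Total-count scaling moved the median of all genes by 0.14 in control cells under the drug, log2(FPKM + 1) by 0.14 and log2(FPKM + 0.1) by 0.19.

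Under limma on the authors' rlog values, chosen after the data were seen, changes were smaller, and the 1 call lost was SOX13 in E5 against control cells under FOLFIRINOX (-0.14, adjusted p = 0.06). Same-numbered libraries showed little likeness. Of 18 same-numbered pairs, 3 had a correlation above 0.1, and 3 of 12 libraries correlated best with their own number. These correlations used deviations from means of 3 libraries, so they cannot show whether same-numbered libraries were prepared together. The replicate block ended the call of SOX13 in E5 against control cells under FOLFIRINOX (-0.23, adjusted p = 0.061) and no other call of the 9 genes. Across left-out libraries the uncalled differences ranged from -0.01 to 0.28 for SOX12 and from -0.12 to 0.03 for SOX13. Depth limits KLF5 most, with 49 to 87 reads per library in E5 cells.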
